A study of Mus musculus with 12 samples.

Results

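The genes described here are 10 nucleic acid sensor genes of the mouse: 7 numbered genes of the Ifi200 cluster (Ifi203, Ifi204, Ifi205, Ifi206, Ifi207, Ifi208 and Ifi209), Aim2, Cgas and Sting1. They were taken by symbol from 2 deposited count tables that list 32190 gene symbols each, and all 10 passed the filter on low counts in both tables (13072 genes tested in the bone marrow table and 13040 in the tumour table). The members were selected on earlier results of these data: the family came to notice through the LPS fold change of Ifi206 in wild-type cells. For that comparison, for the interaction that contains it, and for the unstimulated knockout-labelled against WT comparison, which uses the same unstimulated WT libraries, values of the members and of the other Ifi200 genes are therefore given as a description without a p-value. The comparison of the labels with LPS uses the same LPS-treated WT libraries. Its member p-values are printed, but they are not independent of the choice of genes.

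RNA was measured in 12 libraries, 2 in each of 6 groups. The tumoral groups were dendritic cells (DCs, which take up antigen and present it to T cells) sorted from tumours of MC38, a mouse colon carcinoma line, in Zbtb46-Tdtomato mice labelled WT, whose red reporter is driven from the locus of a transcription factor of conventional DCs. They were taken at day 7 (early stage) or day 14 (late stage). The other 4 groups were bone marrow-derived dendritic cells (BMDCs), DCs grown in culture from marrow, with a labelled time of 9 days. They came from WT mice or from mice labelled Pde5 knockout (Pde5-/-), which lack by label the phosphodiesterase that breaks down cyclic GMP, and were left unstimulated or given 200 ng/ml of lipopolysaccharide (LPS, a bacterial cell wall component sensed by TLR4) for 12 h. The sources used here do not state numbers of animals, their age, the culture factors or the design of the knockout allele. No source says that replicates came from separate animals, so a p-value covers no more than the variation among these libraries, possibly technical.

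Mammalian cells sense DNA that is out of place through a small set of proteins. Cgas binds double-stranded DNA and makes the cyclic dinucleotide cGAMP, which activates Sting1 on the endoplasmic reticulum; Sting1 in turn activates the kinase Tbk1 and the transcription factor Irf3, and type I interferon follows. Aim2 binds DNA through a HIN domain and nucleates the Pycard-caspase-1 inflammasome through a pyrin domain. The Ifi200 genes encode related pyrin and HIN proteins, were named for their induction by interferon, and lie in a cluster beside Aim2 that has expanded in rodents; Ifi204 is the mouse protein most often compared with human IFI16.

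Aim2 and the Ifi200 genes occupy a single stretch of chromosome 1 of GRCm38.p6, the RefSeq copy of the mm10 build named in the submitters' processing notes. In coordinate order the measured genes are Aim2 (chr1:173349547-173466040, plus strand), Ifi206 (chr1:173468485-173491318, minus), Ifi214, Ifi213, Ifi209 (chr1:173630859-173647928, plus), Ifi208 (chr1:173673628-173698393, plus), Ifi207 (chr1:173723424-173741831, minus), Ifi204 (chr1:173747293-173767069, minus), Mndal, Ifi211, Ifi203 (chr1:173920400-173942866, minus), Ifi202b and Ifi205 (chr1:174011998-174031755, minus). Cgas is on chromosome 9 (chr9:78430518-78443237, minus) and Sting1 on chromosome 18 (chr18:35733678-35740554, minus). The annotated span of Aim2 overlaps that of Cadm3, which was also tested, so the reads of these 2 genes may not be fully separated where exons overlap.

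Because interferon acts through a short promoter element, the sequences just upstream of the Ifi200 starts are shown first. RefSeq promoters (GRCm38.p6, 250 bases before to 50 after a start) were found for 8 of the 10 members, not for Ifi204 and Sting1. The core of the interferon-stimulated response element, written GAAANNGAAA and searched on both strands, was in 1131 of 32851 promoters of that length (3.44%). It was in 5 of the 6 numbered Ifi200 members with a promoter, and in neither Aim2 nor Cgas. The exact letters GAAATCGAAA, found in 16 promoters of the table (0.0487%), were in 4 of those 6 members, Ifi203, Ifi206, Ifi207 and Ifi208, and also in Ifi213, Ifi214 and Mndal. Each line gives the 160 bases before a start, 5′ to 3′ on the gene's strand, with the core or its nearest match in capitals.

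Ifi206 (chr1:173491319-173491478, minus strand): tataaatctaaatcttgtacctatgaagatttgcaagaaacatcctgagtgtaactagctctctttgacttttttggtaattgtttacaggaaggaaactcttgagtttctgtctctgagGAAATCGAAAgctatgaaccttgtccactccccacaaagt
Ifi208 (chr1:173673505-173673664, plus strand): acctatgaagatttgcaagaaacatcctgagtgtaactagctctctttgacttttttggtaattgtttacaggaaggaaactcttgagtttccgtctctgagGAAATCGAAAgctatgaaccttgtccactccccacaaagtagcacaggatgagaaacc
Ifi209 (chr1:173630699-173630858, plus strand): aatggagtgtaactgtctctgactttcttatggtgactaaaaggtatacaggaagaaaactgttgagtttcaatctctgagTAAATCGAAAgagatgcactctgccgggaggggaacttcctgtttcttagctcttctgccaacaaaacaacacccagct
Ifi205 (chr1:174031756-174031915, minus strand): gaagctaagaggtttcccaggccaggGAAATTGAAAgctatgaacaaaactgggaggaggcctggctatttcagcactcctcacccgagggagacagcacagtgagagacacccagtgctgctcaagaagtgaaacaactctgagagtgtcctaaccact
Ifi207 (chr1:173741810-173741969, minus strand): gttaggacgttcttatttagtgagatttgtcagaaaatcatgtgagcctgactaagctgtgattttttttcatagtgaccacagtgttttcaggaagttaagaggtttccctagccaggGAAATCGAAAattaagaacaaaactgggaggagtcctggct
Ifi203 (chr1:173942493-173942652, minus strand): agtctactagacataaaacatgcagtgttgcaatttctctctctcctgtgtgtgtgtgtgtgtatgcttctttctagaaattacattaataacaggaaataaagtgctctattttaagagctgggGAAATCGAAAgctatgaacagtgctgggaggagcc

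The core began 40 bases before the start of Ifi206, 58 before Ifi208, 41 before Ifi207, 35 before Ifi203 and 134 before Ifi205. Ifi203 has 2 promoters in the table, and the other holds no core. Positions in the core are counted from 1 at its first base. The Ifi205 core differed from that of Ifi206 by C6T, and the nearest match in Ifi209, 79 bases before the start, differed by G1T and so does not meet the pattern. A second match on the other strand of Ifi205, TTTCACTTTC, lay 23 bases after the start. Over 130 bases aligned without gaps on the core (100 before it and 20 after), Ifi206 and Ifi208 were 99.2% identical, Ifi206 and Ifi213 97.7%, and Ifi206 and Ifi207 37.7%. A gamma-activated site, TTCNNNGAA, was in none of the 8 members' promoters against 8.3% of all, and an NF-kB pattern, GGGANNNNCC, in 3 of 8 against 20.7%. These matches describe letters in a window; binding was not measured.

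The transcribed parts of the paralogs also share sequence. Cut into overlapping words of 50 bases, the GENCODE M21 transcripts of Ifi209 shared 33.7% of their words with another gene, nearly all with Ifi214 (33.4%). The share was 25.6% for Ifi206, mainly with Ifi208 and Ifi213, 20.9% for Ifi208, 20% for Ifi204, 18.6% for Ifi205, 12.4% for Ifi203 and 7.29% for Ifi207. It was 0.742% for Aim2, 4.68% for Cgas and 0 for Sting1. Among the non-members, 72.8% of the words of Ifi211 recur in other genes, chiefly in Ifi205 and Ifi204. How the authors' counting treated such reads is not given in the sources used here, so counts of these paralogs, and in particular low counts beside an abundant neighbour, are uncertain.

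**Figure D1:**
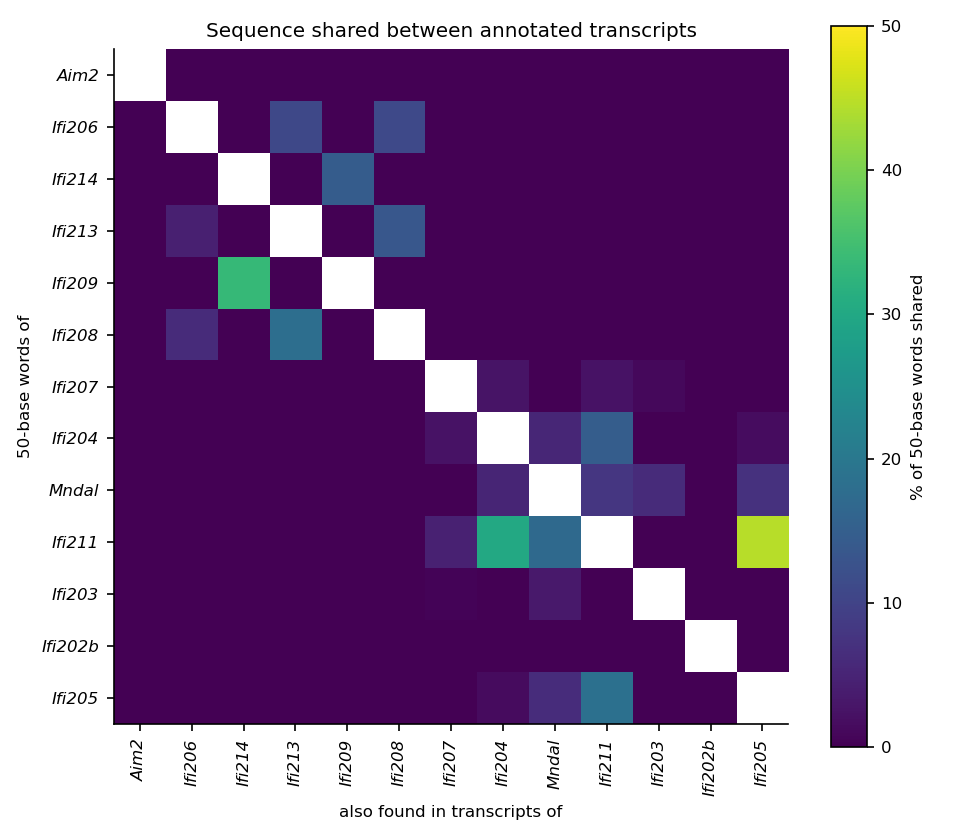
Share of the 50-base words of each row gene (percent, colour scale from 0 to 50) that also occur in transcripts of the column gene, for 13 genes in chromosome order; the diagonal is left blank. Sharing is concentrated in a block from Ifi206 to Ifi208 and a block from Ifi207 to Ifi205, with Aim2 and Ifi202b outside both.

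The tumoral libraries held 14153700 to 19293261 counts and the BMDC libraries 16122941 to 19684338. Pde5a, the gene named by the knockout label, had 37 to 55 counts in unstimulated WT libraries and 47 to 61 in the unstimulated knockout-labelled ones, so its count did not separate the labels (log2 difference 0.12, SE 0.48); where the deletion lies is not given, and exon-level reads were not analysed here. The knockout groups are therefore called by their label throughout. Summed over 12 conventional DC markers, the libraries held 11772 to 19264 normalised CPM (read counts divided by the library total, here scaled within each table by the trimmed mean of M-values, TMM), and Zbtb46 was above 0 in every group. Most of the conventional DC sum was Cd74 and H2-Ab1, joined in BMDCs by Ccr7. Monocyte and macrophage markers summed to 8301 to 13385 CPM in the tumoral libraries against 896 to 1855 in BMDCs. One tumoral library stood apart for these genes: early replicate 2 held the highest level of 6 of the 7 numbered members in the tumour table, so results by stage are also given without it.

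Seen over all groups, the family split in 2. Ifi204, Ifi205, Ifi206, Ifi208 and Ifi209 were at their lowest in unstimulated WT BMDCs, where both libraries lay below all 10 others for each of these 5 genes. Ifi203, Ifi207, Sting1 and Cgas had no such gap, and within the BMDC table Aim2 ran the other way. The 2 tables were normalised separately, so levels set across them are a description.

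Ifi206, whose highest level was the largest multiple of its lowest among the members, stood at 0.608 and 1.07 CPM (11 and 19 counts) in unstimulated WT BMDCs. It stood at 68.6 and 42.1 CPM in unstimulated knockout-labelled BMDCs, 101 and 53.6 in LPS-treated WT, and 35 and 65 in LPS-treated knockout-labelled cells. In tumoral DCs it was at 38 and 50.1 CPM early and 57.8 and 27.7 late. The 10 libraries outside unstimulated WT overlapped one another freely, and none came near the WT pair.

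In unstimulated WT BMDCs Ifi208 had the lowest CPM of the members, at 0.442 and 0.731 (8 and 13 counts). Its levels were 9.54 and 4.84 in the knockout-labelled pair, 21.3 and 12.1 with LPS in WT, and 14.6 and 13.1 with LPS under the knockout label. Early tumoral libraries differed widely, at 1.63 and 7.51, and late ones were at 5.39 and 3.41.

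Ifi204 had 29.7 and 43.3 CPM in unstimulated WT BMDCs, 122 and 87.3 under the knockout label, 216 and 145 with LPS in WT and 125 and 146 with LPS under the knockout label. Tumoral DCs held 198 and 291 early and 216 and 156 late. The tumoral libraries thus overlapped LPS-treated WT BMDCs and lay above every unstimulated BMDC library.

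Ifi209 was at 57.8 and 60.1 CPM in unstimulated WT BMDCs, 149 and 106 under the knockout label, 312 and 198 with LPS in WT, and 189 and 206 with LPS under the knockout label; the tumoral libraries gave 84.5 and 170 early and 105 and 64.4 late. Ifi205 was at 27.1 in both unstimulated WT libraries, 70.7 and 49.4 under the knockout label, 74.5 and 58.7 with LPS in WT, 47.4 and 49.6 with LPS under the knockout label, 65 and 183 early and 70.2 and 58 late. In both genes the unstimulated WT pair agreed closely and was the lowest of the 6 groups, while the early tumoral pair was far apart.

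Ifi203 and Ifi207 were already abundant in unstimulated WT BMDCs. Ifi207 stood at 134 and 146 CPM there, 122 and 115 under the knockout label, 249 and 162 with LPS in WT, 127 and 152 with LPS under the knockout label, 209 and 330 early and 205 and 118 late. Ifi203 stood at 85.2 and 131, 79.4 and 82.3, 136 and 104, and 112 and 104 CPM in the same 4 BMDC groups, then 99.2 and 227 early and 86.8 and 60.6 late. For Ifi203 all neighbours in the order of group means overlapped but 1 pair, LPS-treated above unstimulated knockout-labelled BMDCs.

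Aim2, the inflammasome sensor, was at 54.2 and 53.4 CPM in unstimulated WT BMDCs. The other BMDC groups were lower, at 35.9 and 40.1 under the knockout label, 39.1 and 38.8 with LPS in WT, and 43.7 and 43.1 with LPS under the knockout label, with no overlap with the unstimulated WT pair. Tumoral libraries were at 47.5 and 65.6 early and 46.2 and 36.7 late.

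Cgas, the DNA-binding cGAMP synthase, had a gap between the tables: 26.6 and 26.4 CPM early and 23.5 and 18.6 late in tumoral DCs, against 10.3 to 15.9 in all 8 BMDC libraries. Sting1, the cGAMP receptor, was at 160 and 135 early, 119 and 155 late, and 70.8 to 122 across the BMDC libraries. Its 6 group means ran from 148 ± 17.3 (SD, n = 2) in early tumoral DCs to 80.7 ± 13.9 in LPS-treated WT BMDCs, and each group overlapped the next.

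Levels can be compared between genes only per length of transcript. Per kilobase of exon, Ifi207 was the highest member in unstimulated WT BMDCs (39 and 42.8 CPM per kb), above Sting1 (30.6 and 36.8), while Ifi206 (0.199 and 0.35) and Ifi208 (0.0841 and 0.139) were the lowest. With LPS in WT, Ifi209 had the highest mean (87.9 and 55.9 CPM per kb), overlapping Ifi207 (72.9 and 47.3), and Ifi206 reached 33 and 17.5. In early tumoral DCs Ifi207 (61 and 96.6) and Ifi204 (55.6 and 81.7) led, and Cgas was at 6.45 and 6.4.

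**Figure D2:**
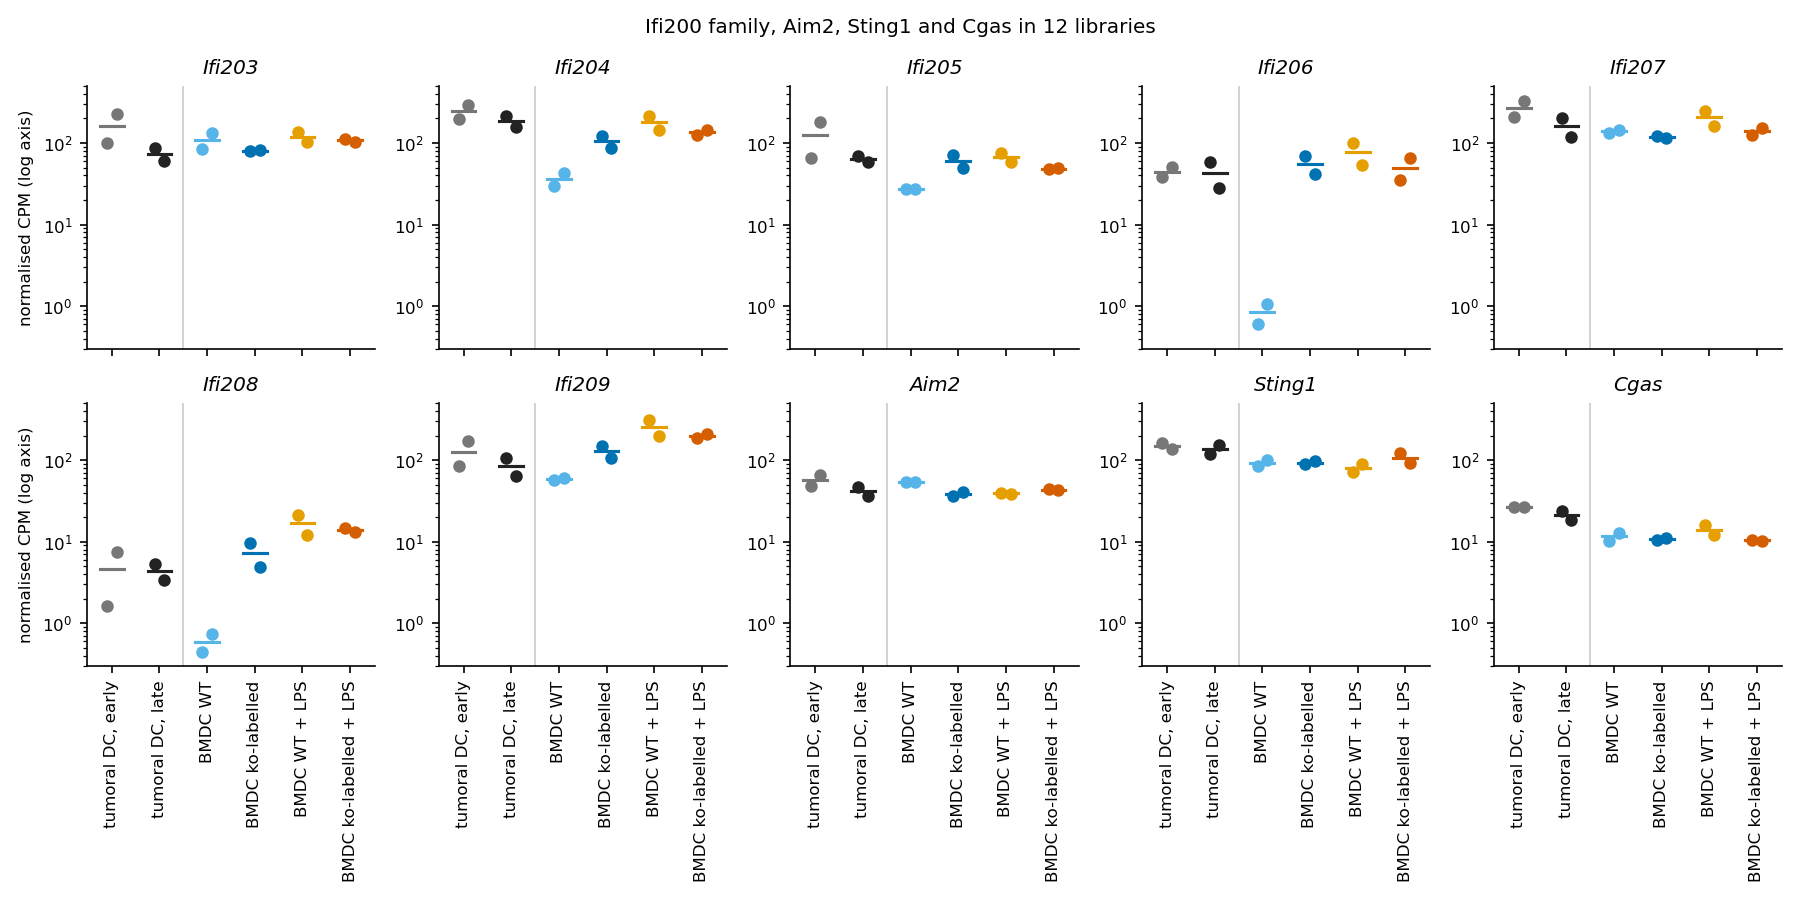
Normalised CPM (log axis) of the 10 members in each of 12 libraries; points are libraries, short lines are means of 2, and the vertical line separates the separately normalised tumour and BMDC tables. Ifi206 and Ifi208 sit near or below 1 CPM in unstimulated WT BMDCs and above it in every other group.

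The first comparison in BMDCs is LPS against no stimulus in WT cells, the one the choice of genes rests on. The log2 difference was 6.51 (SE 0.62) for Ifi206, 4.82 (SE 0.49) for Ifi208, 2.31 (SE 0.27) for Ifi204, 2.11 (SE 0.24) for Ifi209 and 1.30 (SE 0.18) for Ifi205. Ifi207 differed by 0.55 (SE 0.19), Cgas by 0.27 (SE 0.18), Ifi203 by 0.15 (SE 0.20), Sting1 by -0.19 (SE 0.17) and Aim2 by -0.47 (SE 0.096). By edgeR at an adjusted p of 0.05, 6 members counted as higher, where 20.0% of all genes tested did, and 1 as lower (Aim2), where 17.6% did; nothing is read from these counts. The call of Ifi207 was lost in 14 of 17 alternative analyses.

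The next question is how the knockout label bears on the family before any stimulus. Ifi204, Ifi205, Ifi206, Ifi208 and Ifi209 stood higher, and Aim2 lower, in unstimulated knockout-labelled BMDCs than in unstimulated WT BMDCs. The WT libraries are those of the LPS contrast above, so these values are not independent of the choice of genes. The mean level of Ifi206 was 55.3 ± 18.7 CPM (SD, n = 2) against 0.838 ± 0.326, a log2 difference of 6.04 (SE 0.62), and the ratio of the means was 66. For Ifi208 the means were 7.19 ± 3.32 and 0.587 ± 0.204 CPM, a log2 difference of 3.60 (SE 0.50), and its 8 and 13 counts in the WT pair were the lowest of any member. Both genes, whose upstream sequences are almost identical, were above the WT range in each knockout-labelled library.

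The other differences were smaller. Ifi204 differed by 1.52 on the log2 scale (SE 0.27), Ifi205 by 1.15 (SE 0.18), Ifi209 by 1.11 (SE 0.23) and Aim2 by -0.50 (SE 0.095). Sting1 differed by 0.017 (SE 0.17), Cgas by -0.12 (SE 0.18), Ifi207 by -0.24 (SE 0.19) and Ifi203 by -0.42 (SE 0.20). Knockout-labelled libraries lay above the WT pair without overlap for 5 of the 10 members, where 32.5% of all genes did, and below it for 3 (Aim2, Ifi203 and Ifi207), where 31.6% did.

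By edgeR at an adjusted p of 0.05, 5 members counted as higher where 12.0% of all genes did, and 1 as lower (Aim2) where 5.98% did; nothing is read from these counts. The median member differed by 0.564 and the median of all tested genes by -0.011. The counts rest partly on knockout-labelled replicate 1: without it, with the lone library assumed to vary like the other groups, 3 members counted as different (Ifi205, Ifi206 and Ifi208). Ifi209 was also lost without either WT library and Aim2 when only the 4 libraries compared were fitted, and Ifi203 counted as lower without WT replicate 1 (log2 difference -0.70).

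Of the 5 genes that counted as higher, Ifi206 and Ifi208 hold the exact letters GAAATCGAAA shown above, and Ifi205 holds another form of the core. Ifi209 lacks the full pattern, and no promoter was found for Ifi204. Ifi203 and Ifi207, which did not count as higher, also hold the exact letters. Whether the element bears on these levels was not tested. On the chromosome, Ifi207 lies between Ifi208 and Ifi204. Of the other Ifi200 genes listed for this work 5 are in the tables and 4 were tested; 3 counted as higher and Mndal did not. Ifi213, which lies between Ifi214 and Ifi209, was at 0.774 and 1.41 CPM in the WT pair and 34 and 19.9 in the knockout-labelled pair (log2 difference 4.62, SE 0.40). Ifi211 differed by 1.10 (SE 0.24), and most of its sequence is shared with other genes. Ifi214 had 0 counts in both WT libraries and 14 and 10 in the knockout-labelled ones; Ifi202b had 0 to 8 counts in every library and was not tested.

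**Figure D3:**
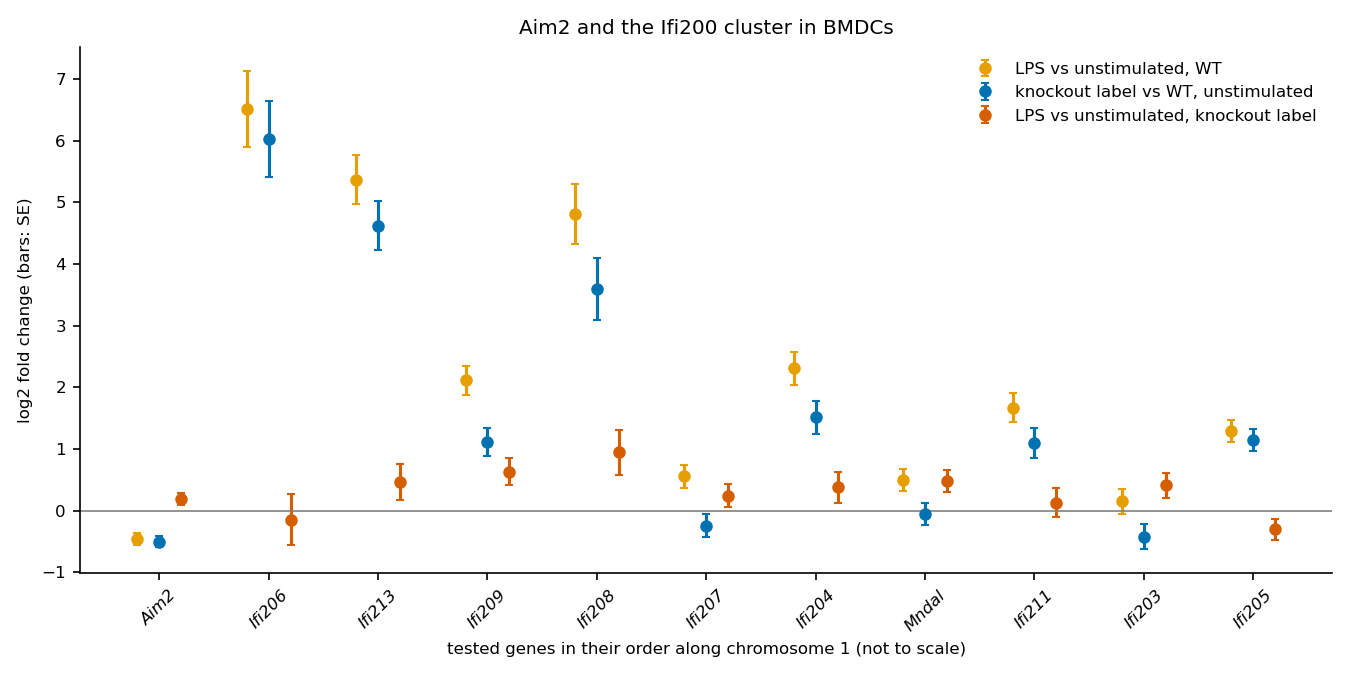
Fitted log2 fold change with its SE for Aim2 and 10 tested Ifi200 genes in chromosome order (not to scale; Ifi214, with no count in unstimulated WT, is left out) in 3 contrasts: LPS in WT, the unstimulated knockout label against WT, and LPS under the knockout label. Ifi206, Ifi213 and Ifi208 stand highest in the first 2 contrasts, which share the unstimulated WT libraries, and every gene lies between -0.31 and 0.95 in the third.

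The summed level of the 12 Ifi200 genes in the tables, Aim2 left out, was 436 and 546 CPM in unstimulated WT BMDCs. It was 825 and 639 under the knockout label, 1420 and 962 with LPS in WT, and 880 and 962 with LPS under the knockout label. The makeup of that sum differed as well. Ifi206 made up 0.14% and 0.196% of it in unstimulated WT, against 8.31% and 6.59% in the unstimulated knockout-labelled pair and 3.08% to 6.11% in tumoral DCs. Ifi207 made up 30.7% and 26.8% in unstimulated WT but 14.8% and 17.9% under the knockout label, beside levels of its own of 134 and 146 CPM and of 122 and 115 CPM.

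**Figure D4:**
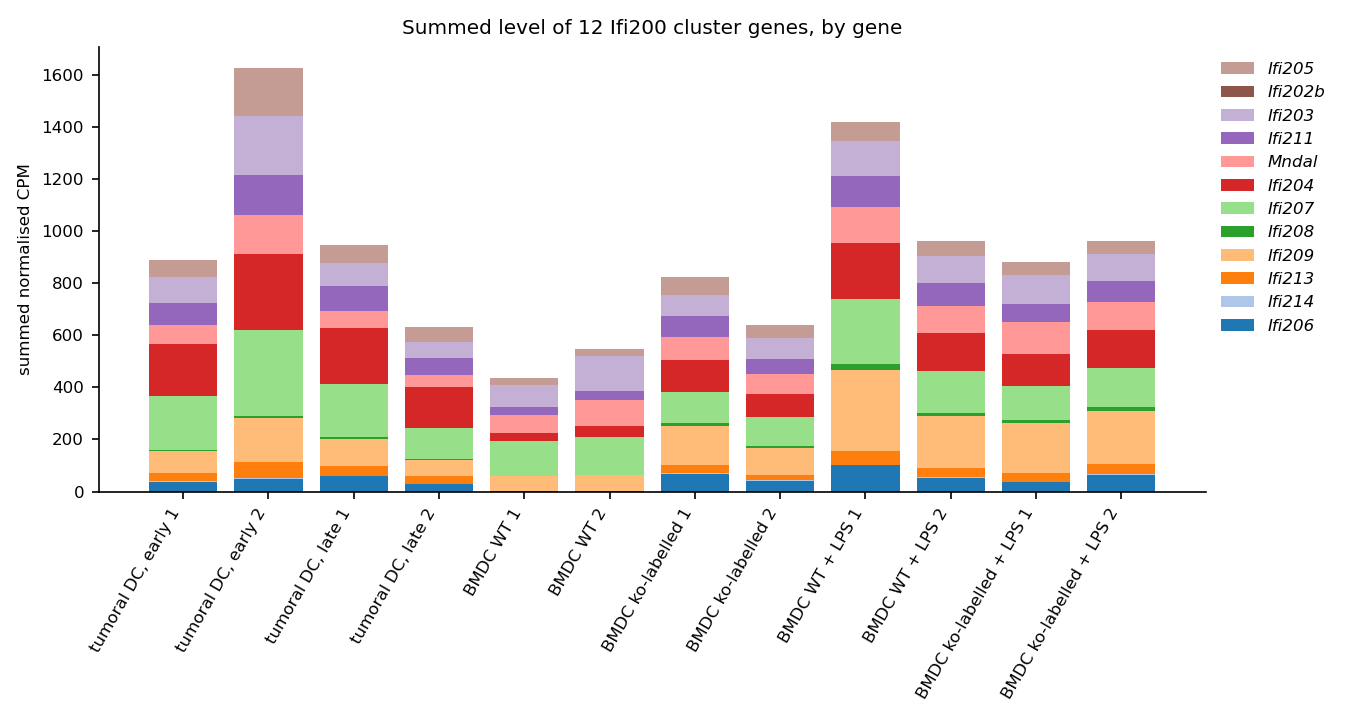
Stacked normalised CPM of 12 Ifi200 cluster genes in each library, coloured by gene in chromosome order from Ifi206 at the bottom to Ifi205 at the top. The unstimulated WT BMDC bars, at 436 and 546 CPM, are the lowest and hold almost no Ifi206, Ifi213 or Ifi208.

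In knockout-labelled BMDCs, LPS against no stimulus gave no called member, and none of all 13072 genes was called (0%; 2800 had an unadjusted p below 0.05). Ifi208 differed by 0.95 on the log2 scale (SE 0.36, edgeR adjusted p = 0.191) and Ifi209 by 0.63 (SE 0.23, adjusted p = 0.173); these 2 were the members with an unadjusted p below 0.05. Ifi206 differed by -0.15 (SE 0.41, edgeR adjusted p = 0.870), and the 2 groups overlapped. Libraries of the 2 groups did not overlap, with LPS higher, for 6 of the 10 members, where 27.1% of all genes behaved so; for none was LPS lower without overlap, where 28.7% of all genes were. DESeq2 called 793 genes in this contrast and 1 member, Ifi209 (adjusted p = 0.0463).

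With LPS in both, knockout-labelled against WT BMDCs again gave no called member and no called gene (0% of 13072; 1330 genes and 4 members had an unadjusted p below 0.05; DESeq2 called 150 genes and no member). The LPS-treated WT libraries are also those of the contrast that chose the genes. That choice can itself pull the member estimates below zero here, so their values and p-values are not independent of it. All 7 numbered Ifi200 members had estimates below zero, where 51.4% of all genes did. They ran from -0.63 for Ifi206 (edgeR adjusted p = 0.631) to -0.16 for Ifi203 (adjusted p = 0.815). Ifi207 differed by -0.56 (SE 0.19, edgeR adjusted p = 0.400), Cgas by -0.44 (SE 0.19, adjusted p = 0.476) and Sting1 by 0.41 (SE 0.17, adjusted p = 0.469). Libraries did not overlap for 5 members: 2 were higher under the knockout label, where 22.6% of all genes were, and 3 lower, where 23.3% were. None of these estimates passed the test, which does not show that the groups were alike. The difference between the 2 LPS responses, the interaction, contains the WT contrast that chose the genes: as a description, 6 members counted as different where 4.48% of all genes did, 5 of them with a smaller response under the knockout label (Ifi204, Ifi205, Ifi206, Ifi208 and Ifi209) and Aim2 with the opposite sign.

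Genes around the sensors were followed through lists by role, in the unstimulated knockout-labelled against WT contrast. The lists were chosen with earlier results of these data known, and the genes named are those of smallest p. Their p-values, here and in the contrasts that follow, are therefore no independent support. In this contrast 12.0% of all genes tested were called higher and 5.98% lower, with a median of -0.011, and the counts below stand against those shares. Among 21 genes that work with Sting1, 4 rose and 1 fell. Ikbke, a kinase related to Tbk1, rose by 1.21 on the log2 scale (SE 0.21, edgeR adjusted p = 0.00689), Traf3 by 0.87 (adjusted p = 0.00735), and Enpp1, the ectoenzyme that degrades cGAMP, fell by 1.11 (adjusted p = 0.0119). The median of the list differed by 0.00788.

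Of 9 tested nucleases that clear DNA or nucleotides, 2 rose and 1 fell, with a median of -0.0772. Dnase1l3, a secreted DNase, rose by 1.88 (SE 0.29, edgeR adjusted p = 0.00718), the dNTP hydrolase Samhd1 rose by 0.57 (adjusted p = 0.0213) and the lysosomal Dnase2a fell by 0.78 (adjusted p = 0.0124). Trex1, the cytosolic exonuclease that limits Cgas activity, was listed at 0 in all 12 libraries. How the authors' counting treated its reads is not given, so this does not show that its RNA was absent.

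Downstream of Aim2, 4 of 12 inflammasome genes rose and 1 fell, with a median of 0.235. Il1b, the cytokine that caspase-1 matures, went from 37.9 to 41.6 CPM in the WT pair to 454 to 691 in the knockout-labelled pair, a rise of 3.85 on the log2 scale (SE 0.20, edgeR adjusted p = 0.000415). Its antagonist Il1rn rose by 2.74 (adjusted p = 0.00465), and the pore-forming Gsdme fell by 0.71 (adjusted p = 0.0383).

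Of 16 tested genes of interferon signalling, 10 rose and 2 fell, with a median of 0.825. Irf7, which drives type I interferon transcription, rose by 3.69 (SE 0.27, edgeR adjusted p = 0.000697) and the ubiquitin-like Isg15 by 3.79 (adjusted p = 0.000984), while the receptor chains Ifngr1 and Ifnar2 fell by 0.51 and 0.65 (adjusted p = 0.0217 and 0.0353). Of 24 other nucleic acid sensors, 11 rose and 3 fell, with a median of 0.433. Zbp1, a sensor of Z-form nucleic acid, rose by 3.91 (SE 0.34, edgeR adjusted p = 0.0013) and Oasl1 by 2.51 (adjusted p = 0.00167), while the endosomal RNA receptor Tlr3 fell by 1.37 (adjusted p = 0.0106) and the DNA end-binding Xrcc6 by 0.68 (adjusted p = 0.0309). Ifnb1, which encodes interferon beta, had 0 counts in all 4 unstimulated BMDC libraries and at most 1 in any LPS-treated library. With LPS under the knockout label, between the labels with LPS, and between tumour stages, none of the genes of these 5 lists passed edgeR's test, in contrasts where it called 0%, 0% and 0.0230% of all genes.

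With LPS in WT BMDCs the same lists had more called genes, in a contrast where 20.0% of all genes were called higher and 17.6% lower and the median of all genes tested was -0.0242. The members were chosen on this contrast, and the lists with it known, so the list values and p-values are a description. The list medians were 0.0437 for the Sting1 partners, -0.32 for the nucleases, 0.574 for the inflammasome genes, 0.549 for the other sensors and 1.27 for interferon signalling. Of the Sting1 partners 5 rose and 2 fell, among them Ikbke (1.23, edgeR adjusted p = 0.00296), Traf3 (1.19, adjusted p = 0.000889), Enpp1 (-1.66, adjusted p = 0.00116) and the cGAMP importer Slc19a1 (-1.47, adjusted p = 0.00287). Of the nucleases 3 rose and 2 fell, with Dnase1l3 at 3.34 and Samhd1 at 0.87 (adjusted p = 0.000478 and 0.00177) and Dnase2a at -0.84 and Pld4 at -0.95 (adjusted p = 0.00435 and 0.0169). Of the inflammasome genes 6 rose and 2 fell, with Il1b at 4.07 and the pore-forming Gsdmd at 1.06 (adjusted p = 0.00012 and 0.000414), and Gsdme at -1.15 and the adaptor Pycard at -0.44 (adjusted p = 0.0032 and 0.0401).

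Of 16 interferon signalling genes 13 rose and 2 fell: Irf7 rose by 4.56 and Isg15 by 4.65 (edgeR adjusted p = 0.000282 each), and Ifngr1 fell by 1.42 and Ifnar2 by 0.99 (adjusted p = 0.000282 and 0.00334). Of 24 other sensors 13 rose and 4 fell, with Dhx58 at 2.06 and Oas1a at 3.58 (adjusted p = 0.000282 and 0.000341), and Tlr3 at -2.03 and Xrcc6 at -1.15 (adjusted p = 0.00112 and 0.00191). Among the Ifi200 genes that are no members, Ifi213 differed by 5.36 (SE 0.40) and Ifi211 by 1.67 (SE 0.24), as a description.

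The interaction, the LPS difference under the knockout label minus that in WT, called 3.91% of all genes as lower and 0.566% as higher. It contains the contrast that chose the members, so its list values and p-values are a description too. Of the Sting1 partners 1 of 21 was lower, Ikbke (-1.61, edgeR adjusted p = 0.0224), and of the nucleases 1 of 9, Dnase1l3 (-2.06, adjusted p = 0.0365). Of 12 inflammasome genes 4 were lower, among them Il1b (-3.97, adjusted p = 0.00291) and Casp4 (-1.96, adjusted p = 0.0209). Of 24 other sensors 9 were lower, among them Zbp1 (-4.19, adjusted p = 0.00883) and Oas1a (-3.16, adjusted p = 0.00912). Of 16 interferon signalling genes 6 were lower, among them Irf7 (-4.03, adjusted p = 0.00652) and Isg15 (-4.28, adjusted p = 0.00668), and 1 was higher, Ifngr1 (1.05, adjusted p = 0.0167). The list medians were -0.0871, 0.00699, -0.498, -0.725 and -0.803 in that order, beside -0.00727 for all genes.

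Markers of cell types also differed in the unstimulated knockout-labelled against WT contrast, where 12.0% of all genes were called higher and 5.98% lower. Of 12 monocyte and macrophage markers 3 rose, among them Cd14 (log2 difference 2.02, edgeR adjusted p = 0.00661) and Fcgr1 (2.50, adjusted p = 0.00943). The summed level of the 12 was 1519 to 1797 CPM in WT and 1673 to 1855 under the knockout label, with none at 0. Means of Ccr2 (287 CPM in WT and 111 under the label), Csf1r (693 and 586) and Cd68 (381 and 301) were lower, though none was called. The other markers of the list had higher means under the label. Of 12 conventional DC markers 2 rose, Zbtb46 (0.80, adjusted p = 0.00515) and Ccr7 (0.75, adjusted p = 0.0189), and 2 fell, Clec9a (-1.78, adjusted p = 0.00181) and Xcr1 (-2.05, adjusted p = 0.0116), with sums of 16572 to 17088 and 13692 to 15848. Of 9 tested neutrophil markers 4 fell, among them Ltf (-1.49, edgeR adjusted p = 0.00922) and S100a8 (-0.99, adjusted p = 0.0157), with sums of 111 to 172 and 89.2 to 95.7. Ly6g and Retnlg were at 0 under the knockout label, but had only 1 and 0 and 3 and 5 counts in WT. Their zeros therefore show no loss. Csf3r went the other way without overlap, with a mean of 20.8 CPM in WT and 35.6 under the label. Summed plasmacytoid DC markers were at 170 to 261 CPM in WT and 325 to 467 under the knockout label, where Bst2 rose (1.51, edgeR adjusted p = 0.00305), and summed NK cell markers at 23.4 to 45.8 and 52 to 71.2, where Gzmb rose (2.96, adjusted p = 0.0066). The median over the 6 plasmacytoid DC markers was -0.826, opposite in sign to their summed level. Most of the NK cell sum was Klrk1, with a mean of 31.3 CPM in WT and 55.2 under the knockout label. Means of Gzma, Gzmb, Prf1 and Nkg7 were also higher under the label. Those of Ncr1 (0.924 and 0.725), Klrb1c (0.645 and 0.237) and Eomes (0.224 and 0.153) were lower. Summed T cell markers were at 36.6 to 47.8 CPM in WT and 19.7 to 28.8 under the knockout label, with none of 8 tested passing. Within that sum Cd28 alone had a mean of 31.5 CPM in WT and 12.3 under the knockout label. The median over the 8 tested T cell markers was -0.00456. Of 3 tested endothelial markers Kdr rose (1.40, edgeR adjusted p = 0.0154), with sums of 41.8 to 66.9 and 64.6 to 75.9. Pecam1 had a mean of 35.8 CPM in WT and 23.8 under the knockout label, and the median over the 3 was -0.591. The part of these cells in the levels of the Ifi200 genes was not tested. In such bulk samples fewer cells of a type and less RNA per cell cannot be told apart.

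With LPS in WT, where 20.0% of all genes were called higher and 17.6% lower, 4 of 12 conventional DC markers rose, among them Zbtb46 (1.14, edgeR adjusted p = 0.000527) and Ccr7 (1.24, adjusted p = 0.00111), and 6 fell, among them Clec9a (-2.21, adjusted p = 0.000396) and Itgax (-0.85, adjusted p = 0.00305). Their sums, 15539 to 18044 CPM with LPS, overlapped those without. Of 12 monocyte and macrophage markers 6 rose, among them Fcgr1 (2.82, edgeR adjusted p = 0.00284) and Cd14 (1.35, adjusted p = 0.0123), and 2 fell, Ccr2 (-2.58, adjusted p = 0.00676) and Csf1r (-0.65, adjusted p = 0.0285), with sums of 1401 to 1712 that also overlapped. Of 9 neutrophil markers 5 fell, among them Ltf (-2.97, edgeR adjusted p = 0.000419) and Ngp (-1.98, adjusted p = 0.0012), with sums of 62.1 to 70.3. Ly6g and Retnlg were at 0 with LPS, beside at most 5 counts in any library without it. Csf3r went the other way without overlap, with a mean of 20.8 CPM without LPS and 29.5 with it.

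Smaller lists had single calls with LPS in WT. Bst2 rose and Siglech fell among 6 plasmacytoid DC markers (1.88 and -2.69, edgeR adjusted p = 0.000529 and 0.0436), Kdr rose and Pecam1 fell among 3 endothelial ones (3.07 and -1.70, adjusted p = 0.000478 and 0.00582), Gzmb rose among 5 NK cell ones (2.92, adjusted p = 0.00311) and Cd28 fell among 8 T cell ones (-2.38, adjusted p = 0.00922). With LPS under the knockout label, monocyte and macrophage markers summed to 896 to 1331 CPM and NK cell markers to 82 to 111, neither overlapping any other BMDC group. Klrk1 alone had a mean of 85.2 CPM in that group. The part of these cells in the levels of the Ifi200 genes was not tested here either.

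Between late and early tumoral DCs no member passed the test, and 3 of 13040 genes did (0.0230%), all lower: Cd226, Lck and Sytl2, named after their values were seen. DESeq2 called 311 genes and no member, and 1438 genes had an unadjusted p below 0.05 in edgeR. All 10 members had estimates below zero, where 48.7% of all genes did, with a median of -0.422 against 0.0117. Late libraries lay below early ones without overlap for 4 of the 10 members, where 22.2% of all genes did so.

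Ifi203 had the largest estimate, -1.15 on the log2 scale (SE 0.41, edgeR adjusted p = 0.401), and was the only member of the 10 with an unadjusted p below 0.05 (0.030). Ifi205 differed by -0.95 (SE 0.47, adjusted p = 0.525), Ifi207 by -0.74 (adjusted p = 0.482) and Ifi209 by -0.59 (adjusted p = 0.616). Ifi206 and Ifi208 differed by -0.04 each (adjusted p = 0.981 and 0.990), Sting1 by -0.11 (adjusted p = 0.894), Cgas by -0.33 (adjusted p = 0.654), Aim2 by -0.45 (adjusted p = 0.548) and Ifi204 by -0.39 (adjusted p = 0.623). These values depend on the early libraries, of which replicate 2 was the higher for all 7 numbered members.

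Left with early replicate 2 alone, and with its spread assumed like that of the late pair, edgeR called 1063 genes and 4 members lower: Ifi203 (-1.62, adjusted p = 1.68e-06), Ifi205 (-1.50, adjusted p = 1.21e-05), Ifi207 (-1.02, adjusted p = 0.00555) and Ifi209 (-0.999, adjusted p = 0.00983). Left with early replicate 1 alone, it called 572 genes and no member, Ifi205 differed by -0.015 and Ifi208 turned to 1.43. Without a filter on low counts Ifi203 and Ifi205 passed with all 4 libraries (adjusted p = 0.000508 and 0.00947).

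**Figure D5:**
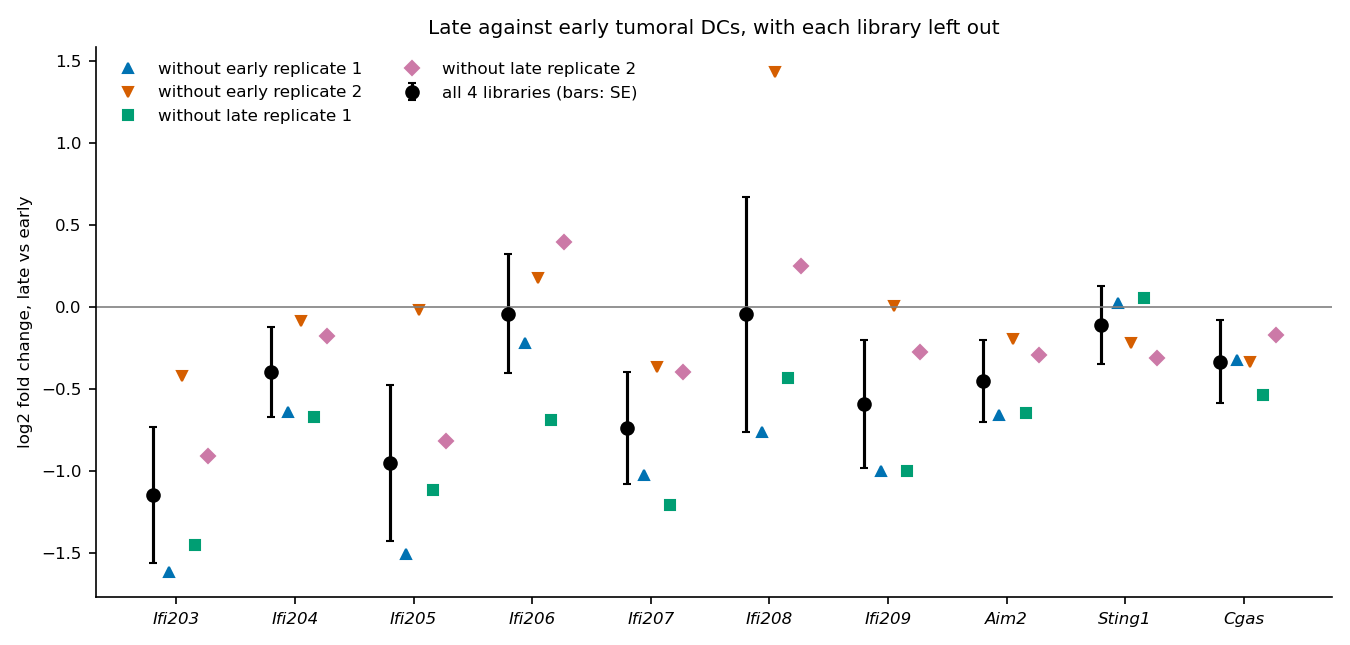
Log2 fold change of late against early tumoral DCs for each member, with its SE over all 4 libraries (black) and the estimate with each library left out in turn. The estimates of Ifi203, Ifi205, Ifi207 and Ifi209 are most negative without early replicate 1 or late replicate 1, and Ifi205 and Ifi209 are close to zero without early replicate 2.

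Summed markers of other cells differed with stage in the sorted cells, though of the marker genes tested only Lck passed (1 of 10 T cell markers, -2.25, edgeR adjusted p = 0.0444; 0.0230% of all genes were called). T cell markers (10 genes, none at 0) summed to 519 and 378 CPM early and 109 and 58 late, NK cell markers (8 genes) to 1046 and 714 early and 227 and 94 late, and fibroblast markers (6 genes) to 914 and 420 early and 260 and 87.6 late. Endothelial markers (5 genes) were also lower without overlap, at 112 and 120 early and 86.1 and 71.3 late, and monocyte and macrophage markers (12 genes) higher without overlap, at 10217 and 8301 early and 11338 and 13385 late. Sums of B cell, neutrophil, mast cell and plasmacytoid DC markers overlapped. Conventional DC markers summed to 12617 and 19264 early and 11772 and 16792 late, which overlap. Most of each sum was Cd74 and H2-Ab1. Clec9a (means of 40.9 CPM early and 23.6 late), Batf3 (37.8 and 28.4) and Dpp4 (69.4 and 41.5) were lower late without overlap. Itgax (386 and 494) was higher late without overlap, and the other markers of the list overlapped. The highest T cell, NK cell and fibroblast sums were in early replicate 1, whereas the highest Ifi200 sum, 1625 CPM against 887, was in early replicate 2. The part of these cells in the member differences was not tested.

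The members' profiles over the 8 BMDC libraries can be set beside those of other genes, as a description over libraries that share their groups. Among themselves, Ifi204 and Ifi208 had a Pearson r of 0.99 and Ifi205 and Ifi206 of 0.95, while Ifi205 and Aim2 had -0.96 and Ifi203 and Ifi206 -0.01. Of 9801 genes ranked, those most like the mean of the numbered Ifi200 members were Slfn5 (r = 0.990), Ddx24 (0.985), Nab1 (0.983) and Secisbp2 (0.983). That mean takes in Ifi203 and also Ifi207, whose r with Ifi206 was 0.25. Genes most like it need not be those most like Ifi204, Ifi205, Ifi206, Ifi208 and Ifi209. Most like Aim2 were Celf2 (0.987), Ptp4a2 (0.971), Elmo1 (0.962) and Tmem106b (0.956). Most like Sting1 were Helb (0.971), Terf2 (0.964), Nfe2 (0.937) and Senp6 (0.934). Most like Cgas were Snx2 (0.961), Ctso (0.951), Kdm8 (0.936) and Sec22a (0.913).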

How the data were processed

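RNA-seq libraries were made from total RNA with a TruSeq kit, per the labels' protocols, which name retina as the tissue extracted although no sample is labelled so. The authors deposited raw counts per gene symbol in 2 tables (8 BMDC and 4 tumoral libraries); the submitters' processing notes name fastp 0.12.4, HISAT2 2.2.1, featureCounts 2.0.1 and mm10, and no source used here gives the annotation release or the strand setting. Each table was fitted separately with edgeR 4.0.16 (R 4.3.3): filterByExpr, TMM, robust quasi-likelihood test without a block, Benjamini-Hochberg adjustment over all genes tested, called below 0.05; SEs are the estimate divided by the square root of F. Levels are TMM-scaled CPM. The alternatives used DESeq2 1.42.0, limma 3.58.1, other scalings and filters, and left out each library. In simulated counts with 100 genes changed 2-fold, 81 were called in the BMDC design and 16 in the tumoral design, and of 100 changed 4-fold 99 and 92. Replicate dispersion (biological coefficient of variation) was 0.138 in BMDCs and 0.278 in tumoral DCs, and replicates differed by more than counting noise. Named were all members, the 2 genes of smallest p per direction and list, list genes at 0 in every library, and the 4 genes most like each profile (among tested genes above a mean level). Members and lists were chosen with earlier results of these data known. Member p-values for the unstimulated label contrast were planned but are not printed, because it shares its WT libraries with the contrast that chose the genes.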

Additional observations from a re-analysis of the deposited data

Results flagged for a closer look

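The response to LPS, taken as the log2 fold change in knockout-labelled minus that in WT BMDCs, differed between the labels for 6 members by edgeR's interaction term; it contains the contrast that the choice of genes rests on, so the values are a description. The difference was -6.66 (SE 0.75) for Ifi206, -3.87 (SE 0.62) for Ifi208, -1.94 (SE 0.37) for Ifi204, -1.605 (SE 0.25) for Ifi205, -1.48 (SE 0.32) for Ifi209 and 0.66 (SE 0.14) for Aim2. Lower differences were called in 5 members where 3.91% of all genes were, and higher in 1 where 0.566% were. For Ifi206 the levels behind it stood at 0.608 and 1.07 CPM in WT and 68.6 and 42.1 under the knockout label, against 101 and 53.6, and 35 and 65, with LPS. Of these calls Ifi206 was lost in 1 of 16 alternatives, Ifi205 in 3, Ifi208 in 4 of 15, Aim2 in 7, Ifi204 in 8 and Ifi209 in 9. Leaving out 1 library brought the number of members called to between 1 and 6, and every library other than unstimulated knockout-labelled replicate 2 and LPS-treated WT replicate 2 lowered it to 3 or fewer.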

How the results depend on the processing

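Of 954 member values under alternative settings, 867 kept their direction and their side of the threshold, 52 kept the direction but no longer passed, 8 passed only under the alternative and 27 changed sign; the cause was not tested. With 1 library left out in turn, genes called ran from 2676 to 4831 for LPS in WT, 0 to 615 for LPS under the knockout label, 593 to 2717 for the label without LPS, 0 to 65 for the label with LPS, 58 to 1076 for the interaction and 0 to 1063 for late against early, and members called from 6 to 7, 0 to 0, 3 to 6, 0 to 0, 1 to 6 and 0 to 4. LPS under the knockout label called 22 genes with DESeq2 size factors, 21 with upper-quartile scaling, 24 with library size alone, 587 without a filter, 793 and 1 member with DESeq2. The label with LPS called 56 without a filter and 150 with DESeq2, the interaction 948 and 1082, and the label without LPS 993 from its 4 libraries alone. Late against early called 0 with DESeq2 size factors, 45 with upper quartiles, 28 with library size, 689 and 2 members without a filter, 0 above 10 CPM, 311 with DESeq2 and 0 with limma-voom. Library size alone shifted the median of all genes to -0.228 for LPS in WT, -0.115 for the label without LPS and 0.119 for the interaction, and its calls split into 1689 higher and 3728 lower (2609 and 2301 with TMM) and 1282 and 1301 (1575 and 782 with TMM). Same-numbered libraries share only a number: their differences correlated between -0.2 and 0.275 with 2 pairs. A replicate block called 321 genes for LPS under the knockout label, 2 for the label with LPS and 173 for late against early; under it Ifi207 with LPS in WT and the interaction of Ifi204 were lost, no other member call changed, and Ifi208 turned to 0.27 late against early. Other sign changes were Ifi208 late against early with upper quartiles (0.021) and limma-voom (0.41), Sting1 for the label without LPS with upper quartiles (-0.015), library size (-0.087) and above 10 CPM (-0.010), and Ifi203 with LPS in WT with library size (-0.060). Leave-one-out ranges that crossed zero were, with LPS in WT, Ifi203 -0.13 to 0.49; for the label without LPS, Sting1 -0.11 to 0.16 and Cgas -0.27 to 0.055; for LPS under the knockout label, Ifi206 -0.66 to 0.25, Cgas -0.083 to 0.0016 and Sting1 -0.013 to 0.39; for the label with LPS, Ifi203 -0.34 to 0.052 and Ifi208 -0.62 to 0.19; for the interaction, Ifi203 -0.081 to 0.54 and Ifi207 -0.60 to 0.028; and late against early, Sting1 -0.31 to 0.053, Ifi206 -0.69 to 0.40, Ifi208 -0.76 to 1.43 and Ifi209 -1.0 to 0.0074. Counts of 11 and 19 for Ifi206 and 8 and 13 for Ifi208 in unstimulated WT limit the precision of their fold changes. Ifi208 had no value under the 10 CPM minimum, and the interaction none from 4 libraries.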
